A study of Homo sapiens with 35 samples.

Results

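ETS1 KD and NFKB2 KD cells were compared directly by RNA-seq after TWEAK treatment, to find which genes separate the loss of one transcription factor from the loss of the other. The comparison comprised 6 RNA-seq libraries of the 35 samples in the series, chosen by their labels: 3 libraries of ETS1 KD cells and 3 of NFKB2 KD cells, all treated with 10 ng/ml of TWEAK, with 48 h given as the length of treatment. The cells were U-87 MG, an established human glioblastoma line. Of the 62649 genes in the count table, 16879 passed an expression filter and were tested. A further 3 libraries of TWEAK-treated control cells and 3 of untreated control cells were used as a reference for the level of each gene.

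The KDs were made with CRISPR guides delivered by lentivirus from the lentiCRISPRv2 vector, and no isolation of single clones is described, so each KD culture may hold edited and unedited cells. The RNA-seq labels do not say which guide was used, and effects of a single guide away from its target cannot be told apart from effects of the KD. The replicates are described by the study as biological replicates. Because RNA was measured in bulk cultures, a lower level of a transcript in each cell and fewer cells that carry it cannot be told apart.

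The cytokine TWEAK belongs to the TNF superfamily and acts through the receptor Fn14, encoded by TNFRSF12A. Its main outcome in the non-canonical NF-κB pathway is the processing of p100, the product of NFKB2, to p52, which enters the nucleus with RELB and binds κB sites. ETS1 is a transcription factor of the ETS family that binds DNA around a GGAA core and is known for its part in invasion, angiogenesis and protease expression in tumours. ATF4, by contrast, is a transcription factor of the integrated stress response, which is translated when protein synthesis is slowed by lack of amino acids or by stress in the endoplasmic reticulum.

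Total counts in the 6 KD libraries were between 31843189 and 36200067. NFKB2 KD replicate 2 stood apart from the other libraries of its group, with a score of -30.7 on the first principal component against 10.6 and -4.52 in replicates 1 and 3. The first component held 28.8% of the variance of the 12 libraries. Deviations from the mean of the 12 libraries were also set against the GC content of the genes, which are not independent replicates. NFKB2 KD replicate 2 followed GC content most closely, with a Spearman correlation of 0.523. NFKB2 KD replicate 1 deviated the other way, at -0.391, and replicate 3 stood at -0.0662. ETS1 KD replicates 1, 2 and 3 stood at 0.239, -0.307 and 0.0377. These values hold differences between groups as well as between libraries. Of 12 glioma and astrocyte markers, 8 passed the filter, including VIM, CD44 and NES, while GFAP and S100B did not. The summed level of these 8 genes was between 18260 and 20690 CPM (read counts scaled to library size) in ETS1 KD libraries and between 13890 and 16180 CPM in NFKB2 KD libraries. Sums of the fibroblast, epithelial, endothelial and immune lists were at most 456 CPM in any of the 6 libraries, and the leukocyte marker PTPRC did not pass the filter. No member of these 5 lists passed the edgeR test between the KDs or limma-voom, DESeq2 called 1 glioma marker higher in ETS1 KD cells, and at most 2 members of a list were under an unadjusted p of 0.05 in either direction. The part of GC content or of these markers in the results was not tested beyond the values given below.

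Among the TWEAK-treated groups, each targeted gene was lowest in the cells in which it was targeted. NFKB2 (ENSG00000077150; GRCh38, chromosome 10, 102394110 to 102402524, plus strand) stood at 75.7, 92.6 and 105 CPM in the 3 NFKB2 KD libraries and at 209, 235 and 273 CPM in the 3 ETS1 KD libraries. TWEAK-treated control cells held 290 CPM ± 55.4 (SD, n = 3), from which ETS1 KD cells did not differ past the test (adjusted p = 0.61), and untreated control cells held 56.9 CPM ± 8.78 (SD, n = 3), below NFKB2 KD cells. The groups did not overlap, and the log2 fold change of ETS1 KD minus NFKB2 KD was 1.39 (SE 0.17, adjusted p = 0.00233, edgeR quasi-likelihood test). ETS1 (ENSG00000134954; chromosome 11, 128458761 to 128587558, minus strand) stood at 28.2, 33.0 and 37.8 CPM in ETS1 KD cells and at 67.1, 48.8 and 65.4 CPM in NFKB2 KD cells. TWEAK-treated control cells held 77.5 CPM ± 8.70 (SD, n = 3) of ETS1. The difference between the KDs was -0.87 on the log2 scale (SE 0.15, adjusted p = 0.0102), again without overlap. Both transcripts were reduced and not absent, and an edited gene can still give transcripts that are counted.

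**Figure D1:**
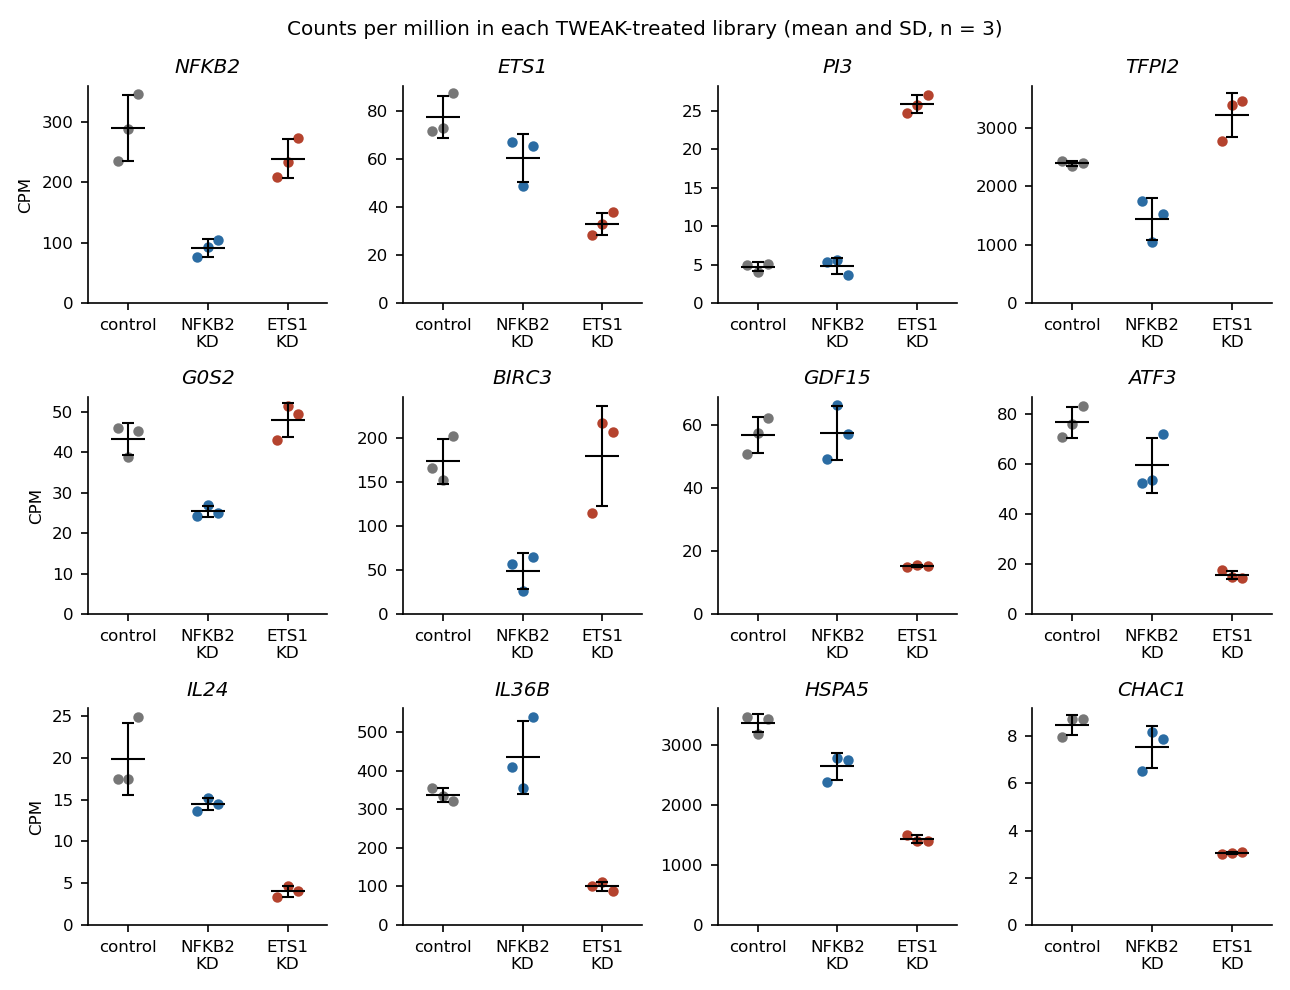
CPM (linear axis from 0) of 12 genes in each TWEAK-treated library of control, NFKB2 KD and ETS1 KD cells. Points are libraries, and black bars are the mean and SD of 3 libraries. NFKB2 and BIRC3 were lowest in NFKB2 KD cells, whereas GDF15, ATF3, IL24, IL36B, HSPA5 and CHAC1 were lowest in ETS1 KD cells.

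The receptor and partners of the pathway did not pass the test between the KDs. TNFRSF12A, the TWEAK receptor, differed by 0.10 on the log2 scale (SE 0.10, adjusted p = 0.697), and RELB, the partner of p52, by 0.27 (SE 0.15, adjusted p = 0.417). ERN1, which encodes the endoplasmic reticulum stress sensor IRE1α, was measured at 13.6 CPM ± 2.13 in ETS1 KD and 13.1 CPM ± 2.53 in NFKB2 KD cells (SD, n = 3 each). The difference for ERN1 was 0.05 (SE 0.24, adjusted p = 0.953), its standard error leaves room for a change in either direction, and its sign was kept in only 3 of the 6 fits that left out 1 library. All 5 NF-κB subunits were tested, and only NFKB2 itself passed, while the other 4 had adjusted p values from 0.383 for NFKB1 to 0.854 for REL.

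Across all genes tested, 90 genes (0.533%) were higher and 237 genes (1.40%) were lower in ETS1 KD than in NFKB2 KD cells at an adjusted p under 0.05. At an unadjusted p under 0.05, 1156 genes were higher and 1459 lower. Whatever their p, 9010 genes had a positive and 7869 a negative fold change. The 90 higher genes had a median log2 fold change of 0.69 and the lower genes of -1.21, against 0.02 over all genes tested. A difference of more than 2-fold was found for 22 of the higher and 150 of the lower genes. Protein-coding genes made up 85 of the higher and 201 of the lower genes. When each of the 6 KD libraries was left out in turn, all of these genes kept their direction, but only 15 higher and 57 lower genes passed the test in all 6 fits. The genes described first below are mostly among those. After each library was corrected for GC content and transcript length, 339 genes (2.01%) were higher and 585 (3.47%) lower, and these included 84 of the 90 and 235 of the 237.

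**Figure D2:**
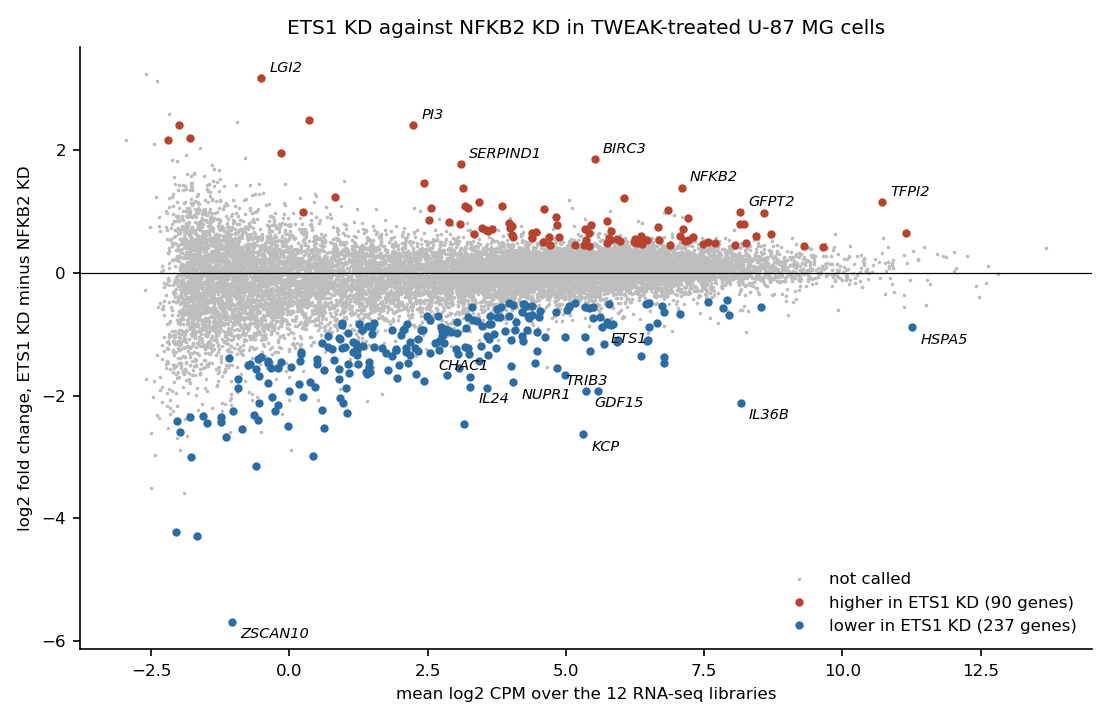
Log2 fold change of ETS1 KD minus NFKB2 KD (vertical axis) against the mean log2 CPM of the gene over 12 RNA-seq libraries (horizontal axis). Red points are the 90 genes higher in ETS1 KD cells, blue points the 237 genes lower in ETS1 KD cells, and grey points the other genes tested. The lower genes reach further from 0 than the higher genes, and ZSCAN10, at the bottom, had 1 count in the 3 ETS1 KD libraries together.

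The level of these genes in TWEAK-treated control cells showed which KD lay away from control. Both KDs were set against the same 3 control libraries, so the values below are given side by side and are not independent of each other. Of the 237 lower genes, all lay below control in ETS1 KD cells, with a median log2 fold change of -1.06, and 134 passed the test against control. In NFKB2 KD cells these 237 genes had a median of 0.09 against control. None of them passed that test by edgeR, although 16 were below and 34 above control at an unadjusted p under 0.05. The shift from control was larger in ETS1 KD cells for 223 of the 237 genes. Over all genes tested, 234 (1.39%) passed the test of ETS1 KD against control and 5 (0.0296%) passed that of NFKB2 KD against control.

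The 90 higher genes were split between the KDs. Their median against control was 0.44 with the KD of ETS1 and -0.15 with that of NFKB2, and 80 of them lay below control in NFKB2 KD cells. Against control, 24 genes passed the test in ETS1 KD cells, and NFKB2, NR5A2 and G0S2 passed it in NFKB2 KD cells. The distance from control was larger in ETS1 KD cells for 68 genes and larger in NFKB2 KD cells for 22. The 2 sets also differed in their levels without KD. Of the higher genes, 87 (96.7%) had a higher mean in TWEAK-treated than in untreated control cells, as did 64 (27.0%) of the lower genes and 8974 (53.2%) of all genes tested. Neither group of control libraries entered the contrast between the KDs, though all 12 libraries shared 1 estimate of the spread.

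**Figure D3:**
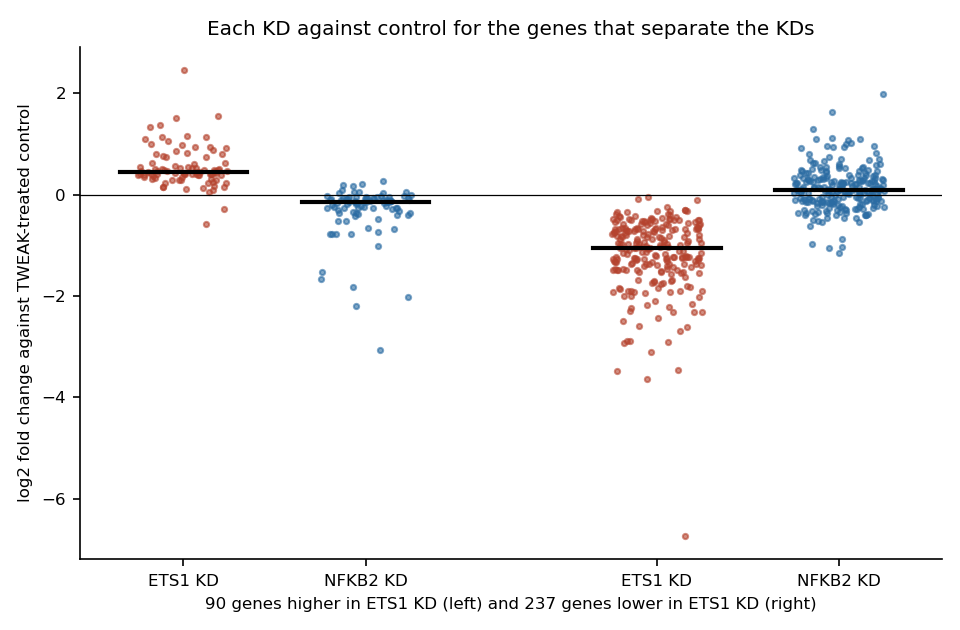
Log2 fold change of each KD against TWEAK-treated control cells (vertical axis) for the 90 genes higher (left) and the 237 genes lower (right) in ETS1 KD than in NFKB2 KD cells. Each point is a gene, and black lines are medians. The medians were 0.44 and -0.15 on the left, and -1.06 and 0.09 on the right, for ETS1 KD and NFKB2 KD.

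The gene with the smallest p value was PI3 (ENSG00000124102; chromosome 20, 45174902 to 45176544, plus strand), which encodes elafin, a secreted inhibitor of neutrophil elastase. It stood at 24.8, 25.7 and 27.1 CPM in ETS1 KD cells and at 5.36, 5.55 and 3.62 CPM in NFKB2 KD cells, while TWEAK-treated control cells held 4.72 CPM ± 0.56 (SD, n = 3). PI3 was thus at the control level in NFKB2 KD cells and 5.33-fold higher in ETS1 KD than in NFKB2 KD cells (log2 fold change 2.42, SE 0.17, adjusted p = 4.5e-05). TFPI2, SERPIND1 and TIMP1 also encode secreted inhibitors of proteases. TFPI2, which inhibits plasmin and related serine proteases of the matrix, stood at 2785, 3400 and 3472 CPM in ETS1 KD and at 1752, 1046 and 1523 CPM in NFKB2 KD cells. SERPIND1, the thrombin inhibitor heparin cofactor II, was 3.41-fold higher, at 24.7 CPM ± 3.40 against 7.25 CPM ± 2.73 (SD, n = 3 each). TIMP1, an inhibitor of matrix metalloproteinases, stood at 482 CPM ± 55.0 in ETS1 KD and at 277 CPM ± 17.7 in NFKB2 KD cells, close to the 283 CPM ± 31.1 of TWEAK-treated control cells (SD, n = 3 each). PI3, TFPI2 and SERPIND1 passed the test without any one of the 6 libraries, whereas the call of TIMP1 was lost without ETS1 KD replicate 1 or 3 or NFKB2 KD replicate 3 (largest adjusted p = 0.0697). Not all genes of protease inhibitors were higher. SPINK1 and CSTA, added here after the calls were read, were lower in ETS1 KD cells. CSTA had a log2 fold change of -1.47 (SE 0.17, adjusted p = 0.0016) and passed without any one of the 6 libraries.

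Proteases and matrix genes otherwise showed few differences. Of 21 tested matrix metalloproteinases, ADAMs and TIMPs, TIMP1 was higher and ADAMTS5, an aggrecanase, was lower in ETS1 KD cells, and the list had a median of -0.18. ADAM21, added here because the list lacked it, was also called lower. ADAMTS5 was uneven in NFKB2 KD cells, at 166, 56.6 and 171 CPM against 46.0, 58.1 and 48.9 CPM in ETS1 KD cells, so that replicate 2 overlapped the ETS1 KD range. Without that replicate, the adjusted p of ADAMTS5 was 0.000255, and without any other of the 6 libraries it was above 0.05. In the plasminogen activator list, 1 of 8 tested genes passed, namely ANXA2, a cell surface binding partner of plasminogen and its activator. ANXA2 stood at 3158 CPM ± 361 in ETS1 KD and 2017 CPM ± 316 in NFKB2 KD cells (SD, n = 3 each), and its processed pseudogene ANXA2P2 was called in the same direction, though reads of the pair could be counted for either. The call of ANXA2 was lost under upper-quartile scaling and without any of 4 libraries. COL4A2, a chain of basement membrane collagen, was the only 1 of 39 collagen, laminin and basement membrane genes to pass, at 11.3 CPM ± 0.73 against 5.42 CPM ± 0.72 (SD, n = 3 each). Leaving out either NFKB2 KD replicate 3 or any ETS1 KD library ended that call (largest adjusted p = 0.0911). The collagen genes COL21A1 and COL22A1, added here because that list lacked them, were called lower in ETS1 KD cells.

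Some genes of NF-κB signalling had a lower level in NFKB2 KD than in ETS1 KD cells. BIRC3, which encodes the ubiquitin ligase cIAP2, stood at 57.0, 26.3 and 65.1 CPM in NFKB2 KD cells and at 115, 217 and 208 CPM in ETS1 KD cells. TWEAK-treated control cells held 174 CPM ± 25.6 and untreated control cells 3.34 CPM ± 1.29 (SD, n = 3 each), so ETS1 KD cells lay around the level of treated control cells, while NFKB2 KD cells did not pass the test against control (adjusted p = 0.194). The difference between the KDs was 3.64-fold (log2 fold change 1.86, SE 0.34, adjusted p = 0.0154), without overlap of the libraries. It did not pass without ETS1 KD replicate 2 (adjusted p = 0.0629) or 3 (adjusted p = 0.077). Of the 19 genes on the list of the TWEAK receptor, TRAFs, cIAPs and NIK, 14 had a positive fold change, against 9010 of all 16879 genes tested. Only BIRC3 and TRAF2 on that list passed the test. TRAF2, the adaptor that brings cIAPs to NIK, was 1.37-fold higher in ETS1 KD cells. TNIP2, a partner of the NF-κB inhibitor A20, was 1.39-fold higher, as the only 1 of 11 inhibitors to pass in the main fit. Fold changes on that list reached down to -0.84 on the log2 scale. DESeq2 called 1 inhibitor higher and 1 lower, and upper-quartile scaling 0 higher and 1 lower. Calls of TRAF2 and TNIP2 were lost without several libraries, with adjusted p values up to 0.132 and 0.127. Neither TRAF2 nor TNIP2 passed the edgeR test of NFKB2 KD against control (adjusted p = 0.889 and 0.682).

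CTSS, G0S2 and LGI2 had a mean at or above that of control in ETS1 KD cells and below it in NFKB2 KD cells. CTSS, the lysosomal protease cathepsin S, stood at 181, 221 and 240 CPM in ETS1 KD and at 121, 88.0 and 104 CPM in NFKB2 KD cells, against 179 CPM ± 21.3 in TWEAK-treated control cells (SD, n = 3). G0S2, an inhibitor of adipose triglyceride lipase, held 43.1, 51.3 and 49.4 CPM in ETS1 KD and 24.2, 26.9 and 24.95 CPM in NFKB2 KD cells, and control cells held 43.3 CPM ± 3.89 (SD, n = 3). For neither gene did the KDs overlap, and G0S2 was among the 3 higher genes that also passed the test of NFKB2 KD against control (adjusted p = 0.0392). LGI2, a secreted leucine-rich repeat protein, was low throughout, at 2.98 CPM ± 0.76 in ETS1 KD and 0.32 CPM ± 0.08 in NFKB2 KD cells (SD, n = 3 each), a 9.08-fold difference. NR5A2, a nuclear receptor of steroid and bile acid metabolism that was named after its values were seen, had 66, 111 and 117 counts in ETS1 KD and 17, 13 and 23 counts in NFKB2 KD cells. Control cells had 95, 124 and 234 counts of NR5A2, and both KDs had lower mean CPM than control. IL1B, the inflammatory cytokine IL-1β, was 2.13-fold higher in ETS1 KD cells (adjusted p = 0.0289), but its call was lost without any of 4 libraries (largest adjusted p = 0.139).

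GFPT2, PMEPA1, BMP6, APLN, HLA-DQA1 and C3 also passed the test of ETS1 KD against control, where they were higher, and not that of NFKB2 KD against control. GFPT2, an enzyme of hexosamine synthesis that marks mesenchymal tumour cells, stood at 435, 539 and 570 CPM in ETS1 KD, at 283, 239 and 252 CPM in NFKB2 KD and at 308 CPM ± 43.6 in control cells (SD, n = 3). ALDH1A3, a retinaldehyde dehydrogenase that marks mesenchymal glioma stem cells, held 572, 816 and 790 CPM in ETS1 KD and 363, 376 and 363 CPM in NFKB2 KD cells. ALDH1A3 passed neither test against control, where its level was 494 CPM ± 69.5 (SD, n = 3). GFPT2 and ALDH1A3 passed the test between the KDs in every fit that left out 1 library, with log2 fold changes of 1.00 (SE 0.13) and 0.98 (SE 0.14). The wider list of mesenchymal glioma genes had a median of -0.02, and only TIMP1 of its 27 tested members passed. PMEPA1, a TGF-β-induced inhibitor of SMAD signalling, was 2.15-fold higher, BMP6, a ligand of the BMP pathway, 2.76-fold, and APLN, the angiogenic peptide apelin, 2.07-fold. The call of BMP6 was lost without ETS1 KD replicate 3 (adjusted p = 0.0502) and that of APLN without ETS1 KD replicate 3 or NFKB2 KD replicate 3 (largest adjusted p = 0.0575). HLA-DQA1, an MHC class II chain, stood at 18.5, 18.2 and 22.4 CPM against 9.29, 6.50 and 6.72 CPM, with the reservation that reads of HLA-DQA1 and HLA-DQA2 can be mistaken for each other. C3, the central complement component, was 2.32-fold higher (adjusted p = 0.0449), and this call was lost without any 1 of the 6 libraries.

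Genes of the integrated stress response were lower in ETS1 KD cells. Of 32 tested genes on the list of ATF4 and the amino acid response, 11 were lower in ETS1 KD cells and 0 were higher by edgeR, and the median of the list was -0.39 against 0.02 over all genes. At an unadjusted p under 0.05, 16 members were lower and 0 higher. DESeq2 called 15 lower and 0 higher, and limma-voom 11 and 0. When 1 of the 6 libraries was left out, between 7 and 13 members were lower, with 7 without any ETS1 KD library and 11 without NFKB2 KD replicate 2. Against control, 12 members of the list were lower in ETS1 KD cells, with a median of -0.58, whereas 0 members passed in NFKB2 KD cells, with a median of -0.14.

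ATF3 (ENSG00000162772; chromosome 1, 212565334 to 212620777, plus strand), a transcription factor induced by many stresses, stood at 17.4, 14.9 and 14.5 CPM in ETS1 KD cells and at 52.4, 53.6 and 71.9 CPM in NFKB2 KD cells. TWEAK-treated control cells held 76.5 CPM ± 6.37 and untreated cells 74.3 CPM ± 12.2 (SD, n = 3 each), so that the KD of ETS1 left the gene far below both. The log2 fold change between the KDs was -1.93 (SE 0.16, adjusted p = 0.000109). TRIB3, a pseudokinase that restrains ATF4 and AKT, stood at 11.2, 13.5 and 10.4 CPM in ETS1 KD against 39.6, 23.9 and 39.5 CPM in NFKB2 KD cells. DDIT3, the pro-apoptotic factor CHOP, stood at 40.1, 39.8 and 29.3 CPM against 109, 70.1 and 101 CPM. CHAC1, which degrades glutathione, was nearly constant in ETS1 KD cells, at 3.02, 3.03 and 3.09 CPM, and stood at 6.51, 8.19 and 7.87 CPM in NFKB2 KD cells. In all 3 genes the groups did not overlap, and NFKB2 KD replicate 2 was the lowest of its group for TRIB3 and DDIT3 and the highest for CHAC1.

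NUPR1, a stress-induced chromatin protein, stood at 7.71, 5.61 and 4.55 CPM in ETS1 KD and at 19.7, 21.95 and 19.9 CPM in NFKB2 KD cells (log2 fold change -1.78, SE 0.19). CTH, the cysteine-producing cystathionine gamma-lyase, stood at 9.36, 11.6 and 9.67 CPM in ETS1 KD and at 25.1, 17.7 and 23.2 CPM in NFKB2 KD cells. SESN2, an inhibitor of mTORC1 that responds to leucine, held 48.9, 49.0 and 48.8 CPM against 119, 73.3 and 122 CPM. Its call was lost without ETS1 KD replicate 3 (adjusted p = 0.0657). The remaining 4 members that passed, named here to complete the list, were ASNS, which makes asparagine, the mitochondrial folate enzyme ALDH1L2, the mTORC1 inhibitor DDIT4 and ATF4 itself. ASNS and ALDH1L2 each kept their call in 3, and DDIT4 in 2, of the 6 fits that left out 1 library (largest adjusted p = 0.112). DDIT4 stood at 59.7, 46.8 and 50.2 CPM in ETS1 KD cells. It was uneven in NFKB2 KD cells, at 83.6, 223 and 128 CPM, and highest in replicate 2. ATF4 transcript stood at 208, 179 and 193 CPM in ETS1 KD and at 254, 281 and 249 CPM in NFKB2 KD cells, a log2 fold change of -0.43 (SE 0.10, adjusted p = 0.0453). As ATF4 is mainly regulated at translation, its transcript does not give its protein level, and its call was kept without only 1 of the 6 libraries. Among 36 tested aminoacyl-tRNA synthetases, which charge tRNAs with amino acids, AARS1 and GARS1 were lower and 0 were higher by edgeR, DESeq2 or limma-voom, with 1 higher at an unadjusted p under 0.05. AARS1 stood at 166, 175 and 155 CPM in ETS1 KD and at 260, 276 and 259 CPM in NFKB2 KD cells.

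**Figure D4:**
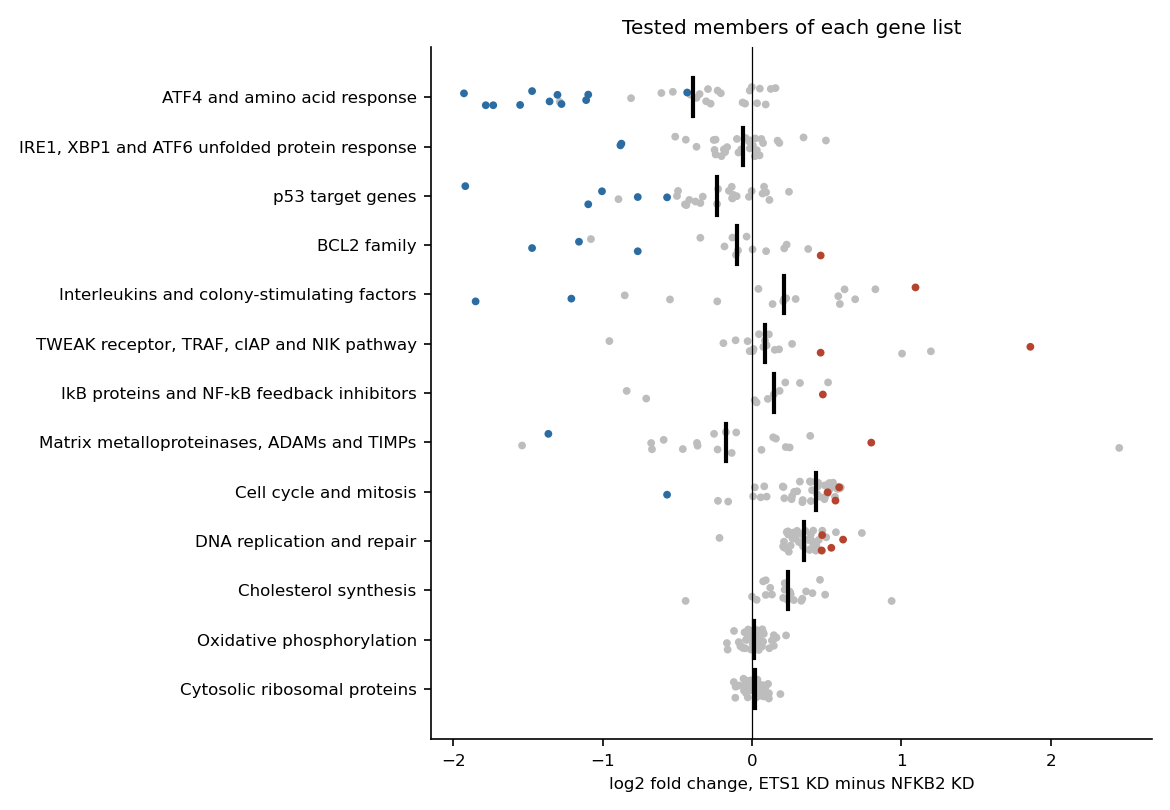
Log2 fold change of ETS1 KD minus NFKB2 KD (horizontal axis) for the tested members of 13 gene lists. Each point is a gene, red where higher and blue where lower in ETS1 KD cells at an adjusted p under 0.05, grey where not called, and black lines are the medians of the lists. The ATF4 list has 11 blue points and a median of -0.39, and the cell cycle and DNA replication lists sit to the right of 0 with few called members.

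Few genes of the unfolded protein response passed the test. Of 32 tested genes of the IRE1, XBP1 and ATF6 branches of the unfolded protein response, HSPA5 and HERPUD1 were lower and 0 were higher in ETS1 KD cells by edgeR, DESeq2 or limma-voom, with 6 lower and 2 higher at an unadjusted p under 0.05. HSPA5 (ENSG00000044574; chromosome 9, 125234853 to 125241382, minus strand), the chaperone BiP, was highly expressed, at 1500, 1405 and 1390 CPM in ETS1 KD and at 2387, 2780 and 2746 CPM in NFKB2 KD cells. Control cells held 3354 CPM ± 149 with TWEAK (SD, n = 3), above both KDs, although only ETS1 KD passed the test against control (adjusted p = 5.06e-05, and 0.727 for NFKB2 KD). HERPUD1, which helps to degrade misfolded proteins, stood at 55.8, 50.2 and 53.8 CPM against 97.4, 86.0 and 110 CPM. The median of the list was -0.06, and both calls held without any 1 of the 6 libraries.

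The promoters of these genes were searched for the elements that ATF4 and ATF6 are known to bind, using RefSeq sequences from 250 bases before to 50 bases after the start (GRCh38.p14), which were at hand for 11404 of the 16879 genes tested. The C/EBP-ATF response element was written as TGATGNAA and the endoplasmic reticulum stress element as CCAAT, 9 bases of any kind and CCACG, both on either strand, and neither pattern contains the other. The first was found in 210 of all 11404 promoters (1.84%), in 8 of 162 promoters of lower genes, in 5 of 25 on the ATF4 list (20.0%) and in 3 of the 9 called lower on that list. The second was found in 14 of all promoters (0.123%) and in 7 of 29 on the unfolded protein response list (24.1%). Among called genes, it was found in 0 of 68 promoters of higher and in 1 of 162 of lower genes, that of HSPA5. The matches below are examples from genes whose levels separated the KDs, and HERPUD1 and HRK also had a match to the first pattern. They are printed with the pattern in capitals and the strand of the gene given 5′ to 3′. A match describes the sequence and does not show that a factor was bound there.

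ATF3, plus strand, chr1:212565191-212565248: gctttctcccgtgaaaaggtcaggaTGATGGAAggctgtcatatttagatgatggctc
CHAC1, plus strand, chr15:40953237-40953294: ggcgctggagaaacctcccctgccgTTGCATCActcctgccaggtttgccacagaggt
ASNS, minus strand, chr7:97872444-97872501: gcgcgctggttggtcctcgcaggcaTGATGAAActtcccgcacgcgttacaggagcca
AARS1, minus strand, chr16:70289661-70289718: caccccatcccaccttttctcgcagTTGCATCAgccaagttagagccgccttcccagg
HSPA5, minus strand, chr9:125241366-125241434: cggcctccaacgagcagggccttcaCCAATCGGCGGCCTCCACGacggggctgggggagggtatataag

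Another 6 patterns were searched in the same promoters, on both strands. The ETS pattern CCGGAAG was found in 18.6% of all promoters, in 8 of 68 promoters of higher genes (11.8%) and in 11 of 162 of lower genes (6.79%). The shorter AGGAAG, which can share its first bases with the end of CCGGAAG, was found in 32.7%, 32.4% and 36.4% of the same sets. The κB pattern GGANTTTCC was found in 1.63% of all promoters, 1 of the higher and 4 of the lower genes, and the AP-1 pattern TGANTCA in 5.14%, 4.41% and 8.02%. TTTGAA, part of the cell cycle homology region, was found in 10.2% of all promoters and in 16 of 36 on the cell cycle list (44.4%). Its shares among higher and lower genes were 13.2% and 11.7%. The first bases of the E2F pattern TTTCCCGC can be shared with a κB match. This E2F pattern was found in 2.60% of all promoters, in 3 of 68 of higher genes (4.41%) and in 1 of 162 of lower genes (0.617%). On the DNA replication list it was found in 12 of 40 (30.0%).

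Secreted and signalling genes outside the stress lists also separated the KDs. GDF15 (ENSG00000130513; chromosome 19, 18374731 to 18389176, plus strand), a stress-induced cytokine of the TGF-β superfamily, stood at 14.9, 15.6 and 15.1 CPM in ETS1 KD cells and at 49.0, 66.2 and 57.1 CPM in NFKB2 KD cells. Control cells held 56.8 CPM ± 5.77 with TWEAK (SD, n = 3), so only the KD of ETS1 lay away from control, and the KDs differed 3.78-fold (log2 fold change -1.92, SE 0.14, adjusted p = 5.37e-05). IL36B, a cytokine of the IL-1 family, was abundant, at 100, 112 and 89.3 CPM in ETS1 KD and at 408, 356 and 540 CPM in NFKB2 KD cells, a 4.32-fold difference. IL24, a cytokine of the IL-10 family, stood at 3.31, 4.63 and 4.09 CPM against 13.7, 15.2 and 14.5 CPM. IL6, the ligand that drives STAT3, was low, at 1.55, 0.95 and 1.43 CPM in ETS1 KD and at 2.72, 3.10 and 3.31 CPM in NFKB2 KD cells, and both KDs lay under the 5.96 CPM ± 0.99 of TWEAK-treated control cells (SD, n = 3). The calls of GDF15, IL36B and IL24 were kept without any 1 of the 6 libraries, and that of IL6 was lost without ETS1 KD replicate 3 (adjusted p = 0.051). Of 17 tested interleukins and colony-stimulating factors, a list without IL36B, IL1B was higher and IL24 and IL6 were lower. No member of the 22 tested genes of the JAK-STAT pathway passed with edgeR or limma-voom, while DESeq2 called 1 lower, and 3 were lower and 0 higher at an unadjusted p under 0.05.

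Some genes of apoptosis and of the p53 response were lower in ETS1 KD cells. HRK, a BH3-only activator of apoptosis, stood at 10.2, 8.55 and 10.3 CPM in ETS1 KD against 23.0, 24.3 and 33.4 CPM in NFKB2 KD cells. The BH3-only genes BMF and BBC3, the latter encoding PUMA, were lower too, and BCL2L12 was higher, among 16 tested genes of the BCL2 family. Of 29 tested p53 target genes, 24 had a negative fold change, against 7869 of all 16879 genes tested. The list had a median of -0.23, and 5 members were lower: GDF15, SESN2, CDKN1A, BBC3 and BTG2. None was higher by edgeR, DESeq2, limma-voom or an unadjusted p under 0.05. DESeq2 called 10 members lower, limma-voom 5 and the fit with GC and length correction 13, and 13 were lower at an unadjusted p under 0.05. GDF15 and SESN2 are also known targets of the ATF4 branch, and SESN2 stands on both lists. CDKN1A, the cell cycle inhibitor p21, stood at 174, 184 and 171 CPM in ETS1 KD and at 242, 302 and 242 CPM in NFKB2 KD cells (log2 fold change -0.57, SE 0.10, adjusted p = 0.015). With 1 library left out, the number of lower p53 targets ranged from 1, without ETS1 KD replicate 3, to 6, and of lower BCL2 family members from 1 to 3.

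Genes of proliferation had mostly positive fold changes, though few members of the lists passed. Over all 16879 genes tested, 9010 had a positive fold change. Of 46 tested cell cycle and mitosis genes, 43 had a positive fold change and the median was 0.43, with UBE2C, AURKB and CDC20, which act in mitosis, higher and CDKN1A lower. Of 45 tested DNA replication and repair genes, 44 were positive with a median of 0.35, and RRM2, TYMS, ORC6 and CDC45 were higher. The mitotic genes CDCA3, CDCA5, CDCA8, NCAPH, GTSE1, TACC3 and FAM83D, added here because both lists lacked them, were also called higher in the main fit. RRM2, a subunit of ribonucleotide reductase, stood at 451, 534 and 491 CPM in ETS1 KD and at 380, 282 and 305 CPM in NFKB2 KD cells. UBE2C, which supplies ubiquitin to the anaphase-promoting complex, stood at 214, 234 and 204 CPM against 171, 135 and 130 CPM. Neither pair of groups overlapped. At an unadjusted p under 0.05, 23 of the cell cycle and 30 of the replication genes were higher. DESeq2 called 9 and 11 members higher, limma-voom 4 and 4, and the fit with GC and length correction 12 and 14. The calls also depended on the libraries, since 0 members of either list were higher without ETS1 KD replicate 2 or 3 or without NFKB2 KD replicate 2 or 3, and upper-quartile scaling left 1 on each list. Against control, the lists had medians of -0.08 and -0.09 with the KD of NFKB2, and of 0.33 and 0.26 with that of ETS1. Cholesterol synthesis genes were positive for 22 of 24 with a median of 0.24, but 0 passed with edgeR or limma-voom, DESeq2 called 1 higher, and 7 were higher and 1 lower at an unadjusted p under 0.05. Oxidative phosphorylation (40 genes, median 0.01) and cytosolic ribosomal proteins (44 genes, median 0.02) had 0 members past the test by edgeR, DESeq2 or limma-voom, and 0 at an unadjusted p under 0.05.

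MEF2C and RPS6KA2 kept their lower calls without any 1 of the 6 libraries. MEF2C, a transcription factor of muscle and neurons, stood at 2.02, 1.69 and 1.97 CPM in ETS1 KD and at 4.31, 6.56 and 8.54 CPM in NFKB2 KD cells. RPS6KA2, a ribosomal S6 kinase downstream of ERK, was lower by a log2 fold change of -1.51 (SE 0.18). HEY1, a Notch target, was the only 1 of 26 tested Notch and Wnt genes to pass, and MAP2, a microtubule protein of neurons, the only 1 of 13 neuronal genes. HEY1 lost its call without ETS1 KD replicate 3 (adjusted p = 0.0705), and MAP2 without ETS1 KD replicate 2 or 3 (largest adjusted p = 0.0941). The Wnt regulators DACT1 and RSPO3, added here because the list lacked them, were also called lower. DACT1 had a log2 fold change of -1.65 (SE 0.21, adjusted p = 0.0023) and passed without any 1 of the 6 libraries. KCP, a secreted regulator of BMP ligands, varied widely, at 14.4, 6.44 and 9.06 CPM in ETS1 KD and at 38.4, 54.3 and 93.0 CPM in NFKB2 KD cells, and its call was lost without ETS1 KD replicate 2 or 3 or NFKB2 KD replicate 3. ZSCAN10, a zinc finger factor of pluripotent cells that was singled out after its values were seen, had 1, 0 and 0 counts in ETS1 KD and 29, 18 and 25 counts in NFKB2 KD cells. Of 42 tested interferon-stimulated genes, IFIT2 was lower, at 4.40, 5.43 and 3.95 CPM against 15.1, 6.39 and 12.7 CPM, and its call was lost without 3 of the 6 libraries and with limma-voom. In the lysosome and autophagy list, CTSS was higher, and WIPI1 and GABARAPL1, which act in autophagosome formation, were lower. Both lower calls were lost without ETS1 KD replicate 3 (adjusted p = 0.0519 and 0.0852), and that of GABARAPL1 also without replicate 2.

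SLCO2B1, an organic anion transporter, was lower at 1.09 CPM ± 0.12 in ETS1 KD against 5.30 CPM ± 1.68 in NFKB2 KD cells (SD, n = 3 each). GOLGA7B, a partner of palmitoyltransferases, was lower at 12.4 CPM ± 1.52 against 25.6 CPM ± 1.57, and CCDC30 at 5.32 CPM ± 0.31 against 12.4 CPM ± 1.08. These 3 genes kept their calls without any 1 of the 6 libraries, as did ATP6V0D2, a subunit of the vacuolar proton pump, at 11.7 CPM ± 1.69 against 36.9 CPM ± 14.8. SLIT3, a secreted guidance ligand, lost its call without 1 library (adjusted p = 0.0651), and PLXDC1 and MYOZ2 without most of them. Among non-coding genes, LINC02154 was lower, at 3.18 CPM ± 0.91 against 17.4 CPM ± 8.23, and LINC01705 at 0.94 CPM ± 0.15 against 2.93 CPM ± 0.69. The pseudogene RPLP0P2 was lower too, with the reservation that its reads can be shared with RPLP0. Of the higher non-coding genes, LYPLAL1-AS1, HMGN2P46 and SLC8A1-AS1 lost their calls without 5 or all 6 of the libraries in turn.

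Other lists had 1 or 2 called members. CRIM1 and CCN1, a matricellular protein, were higher among 27 YAP and TEAD target genes, with a median of 0.13. HBEGF, an EGF receptor ligand, was higher among 25 MAPK feedback and immediate early genes, and AKR1C1, a steroid reductase, among 27 NRF2 targets and metallothioneins. PIK3IP1, a PI3K inhibitor, was lower among 30 genes of receptor tyrosine kinases and PI3K-AKT, CCL26 among 8 chemokines, ATF3 among 12 AP-1 genes and ETS1 among 19 ETS family genes. AKR1C1 and CCL26 lost their calls without any 1 of the 6 libraries, and HBEGF, CCN1, CRIM1 and PIK3IP1 without 5 of them, with adjusted p values up to 0.222. No gene passed with edgeR or limma-voom on the lists of MHC class I antigen presentation, integrins, the TGF-β pathway, angiogenic factors, glycolysis and hypoxia, fatty acid synthesis, proneural genes, HOX genes, heat shock proteins and histones. At an unadjusted p under 0.05 these lists had 0 to 6 higher and 0 to 3 lower members, and DESeq2 called at most 2 members higher and 2 lower on any of them. Their medians lay between -0.13 for histones and 0.21 for heat shock proteins. APLN, BMP6 and PMEPA1, described above as higher in ETS1 KD cells, stood on none of the lists.

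RNA Pol II ChIP-seq of the same conditions, with 2 libraries for each KD, was used to set promoter occupancy beside the RNA. ChIP-seq sequences the DNA that an antibody pulls down with its protein, and stretches enriched over background are called peaks. The peak lists hold no read counts, so presence of a peak was compared without a test, and each list was limited to its 11175 strongest peaks, the number in the shortest list, NFKB2 KD replicate 2. A promoter reached from 1000 bp upstream to 100 bp downstream of any annotated start of the gene. Promoters of the 90 higher genes had a peak in 65.6% and 60.0% of cases in the 2 ETS1 KD libraries and in 60.0% and 47.8% in the 2 NFKB2 KD libraries. For the 237 lower genes, the shares were 26.6% in each ETS1 KD library and 33.3% and 29.5% in the NFKB2 KD libraries. All genes tested had shares of 43.8% and 44.5% in ETS1 KD and of 48.3% and 45.8% in NFKB2 KD. For the higher genes, NFKB2 KD replicate 1 and ETS1 KD replicate 2 had the same share, so the KDs were not separated by it.

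**Figure D5:**
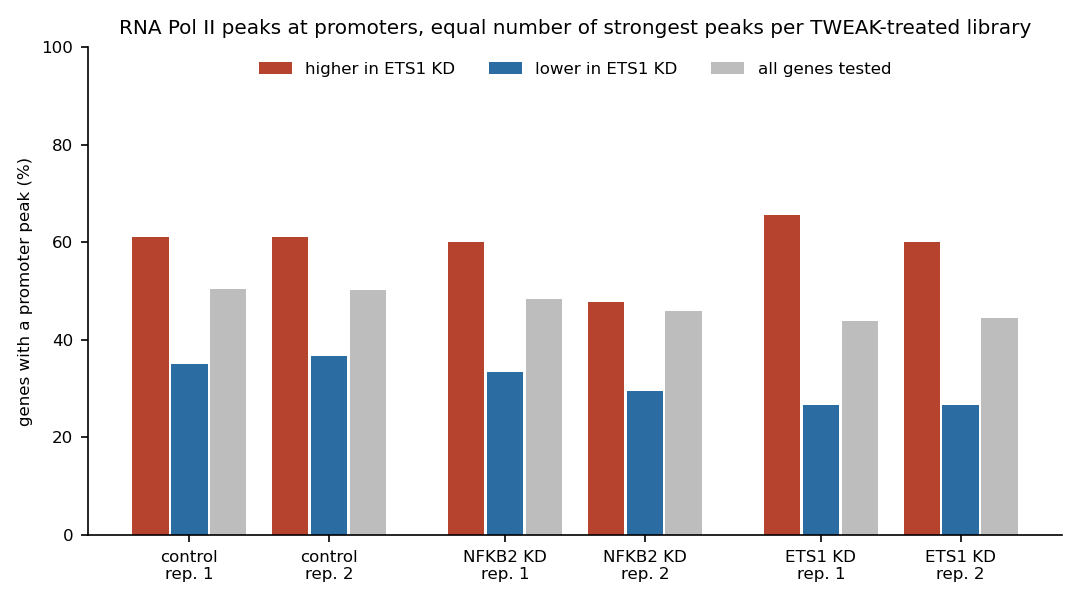
Share of genes (vertical axis, percent, from 0) with an RNA Pol II peak at a promoter in each TWEAK-treated library of control, NFKB2 KD and ETS1 KD cells, among the 11175 strongest peaks per library. Bars are the 90 genes higher in ETS1 KD, the 237 genes lower in ETS1 KD and all 16879 genes tested. In every library the higher genes had the highest share and the lower genes the lowest.

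Few genes had a promoter peak in both libraries of one KD and in neither of the other among the 11175 strongest peaks. Among the higher genes, 3 had such a peak in ETS1 KD only (3.33%, against 0.930% of all genes tested), namely IL1B, GALNT12 and LMO7, and 0 in NFKB2 KD only. Among the lower genes, 0 had one in ETS1 KD only and 1, ANKRA2, in NFKB2 KD only (0.422%, against 2.27% of all genes). These genes were named because there were so few. When all peaks were used, IL1B and LMO7 also had a peak in NFKB2 KD replicate 1, and ANKRA2 had one in both ETS1 KD libraries, so that of these genes only GALNT12 still differed in this way. IL24 had no promoter peak in any of the 4 KD libraries when all peaks were used, but had one in both control libraries, and TRIB3 had one in NFKB2 KD replicate 1 and control replicate 1. ATF3, DDIT3, HSPA5, HERPUD1, AARS1, GDF15 and IL36B had promoter peaks in all 4 KD libraries.

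Binding of p52 and ETS1 was measured in TWEAK-treated control cells, with 2 libraries for each antibody. A p52 peak in both libraries was found at the promoters of 6 of the 90 higher genes (6.67%), 12 of the 237 lower genes (5.06%) and 3.89% of all genes tested. The 6 higher genes were NFKB2 itself, PI3, C3, SRRT, SRSF2 and TCOF1. Peaks in both ETS1 libraries were found at 15 of the higher (16.7%) and 20 of the lower genes (8.44%), against 7.22% of all genes tested. They included the promoters of TFPI2, ALDH1A3, CRIM1 and TRAF2 among the higher genes, and of MEF2C, ADAMTS5 and GARS1 among the lower. DDIT3, SESN2 and BBC3 had p52 peaks, whereas ATF3, GDF15, HSPA5, CHAC1 and TRIB3 had no promoter peak of p52 or ETS1 in any library. Peaks in all 4 libraries of both factors were found at 1 promoter, that of the lower gene MAGI2, while other genes, NFKB2, SRRT and TFPI2 among them, had peaks of both factors in 3 of the 4 libraries. These examples were chosen after the peak lists were read.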

How the data were processed

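RNA-seq was done by the authors on polyA RNA, and the reads were trimmed with Trimmomatic, mapped to hg38 with STAR and assigned to genes by featureCounts. What the authors deposited are raw counts, with no scaling. Versions, annotation release and strand setting are not given in the sources used here. The study names a directional library kit, but whether the counting told reads of overlapping antisense genes apart is not known. The 47 repeated gene identifiers, which hold 1 count in all, were dropped, and 62625 of 62649 identifiers matched GENCODE release 44. No value column was left unused.

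Genes were kept by filterByExpr of edgeR 4.0.16 (R 4.3.3) and TMM-scaled, and tested by quasi-likelihood in 1 model of all 12 libraries and 4 groups, without covariates. Calls used a Benjamini-Hochberg adjusted p under 0.05. CPM were computed on TMM-scaled library sizes. DESeq2 1.42.0, which the study used, and limma-voom 3.58.1 were alternatives. GC content and length were corrected with a loess curve of span 0.3. The scripts were tested on simulated data. No replicates differed by as little as sampling noise.

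The genes named were the targets, per direction the 15 protein-coding genes with the largest folds among those called with a mean log2 CPM of at least 2 and no overlap between the KDs, the 10 with the lowest p values, up to 6 called members of each of 45 lists, ERN1, RELB and TNFRSF12A, and 4 non-coding genes per direction, apart from those marked in the text. A gene that this rule names is not reported here. These members and lists were chosen with earlier results of these data known.

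For ChIP-seq, the authors mapped reads with Bowtie2, called peaks per library with MACS2 and deposited the fold enrichment ratio and −log10 q-value of each peak, which served here to rank peaks. Overlaps needed at least 1 bp, and depth is unknown. Python 3.11.15, NumPy 2.4.6 and matplotlib 3.10.9 were used.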

Additional observations from a re-analysis of the deposited data

How the results depend on the processing

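The numbers of genes higher and lower in ETS1 KD than in NFKB2 KD cells depended on the setting, and the main values were 90 and 237. They were 57 and 287 with upper-quartile scaling, which moved the share of higher genes among those called from 27.5% to 16.6%. They were 172 and 609 without a filter on low counts, 285 and 532 with DESeq2, 26 and 78 with the 6 KD libraries alone, 5 and 23 in a test against a fold of 1.5, and 299 and 946 with the study's own cut-offs (a fold of 1.5 or more and a p, not adjusted, no higher than 0.05). Of these 299 and 946 genes, 59 and 215 were among the main calls. With GC and length correction they were 339 and 585. DESeq2 size factors, a filter of 1 CPM in 3 libraries and limma-voom kept both counts within 1.5 times. Leaving out 1 library gave 17 to 146 higher and 59 to 415 lower genes: 35 and 118 without ETS1 KD replicate 1, 27 and 94 without replicate 2 and 17 and 59 without replicate 3, then 146 and 415 without NFKB2 KD replicate 1, 70 and 196 without replicate 2 and 20 and 116 without replicate 3. The cause was not tested.

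ETS1 in ETS1 KD against NFKB2 KD passed under every alternative except the test against a fold of 1.5 (log2 fold change -0.87, adjusted p = 0.641), and NFKB2 under all of them. The median of all genes moved between -0.04 and 0.03. No called gene among those named by rule reversed its direction in any setting, and all called genes kept theirs in the 6 fits that left out 1 library. ERN1 and REL, which were not called, kept their sign in 3 and 4 of these 6 fits. Counts on short lists could reverse. Among IκB proteins and NF-κB feedback inhibitors, 1 higher and 0 lower genes became 0 and 1 with upper-quartile scaling. The same change was seen for NRF2 targets and metallothioneins without NFKB2 KD replicate 2.

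Deviations of same-numbered libraries from their groups correlated at -0.283, -0.212 and 0.235. They were not corrected for GC content, so they cannot decide whether replicate numbers pair the samples. With a replicate block the counts were 128 and 233, against 90 and 237 without it. With the block and GC correction they were 583 and 791, against 339 and 585 with GC correction alone.

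The share of higher genes with an RNA Pol II promoter peak in both ETS1 KD libraries moved from 56.7% to 67.8% with all peaks. For lower genes it moved from 21.9% to 28.3%, and to 23.6% with promoters from 2000 bp upstream to 500 bp downstream. With a peak in either library, p52 shares were 23.3% of higher and 9.71% of lower genes, and ETS1 shares 28.9% and 14.4%. All genes tested then had shares of 13.96% and 15.7%, above those of the lower genes, which lay above all genes when both libraries were required. The wider promoter gave 17.8% of higher genes with ETS1 peaks. At this depth, genes with few counts have wide errors.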
